A study of Schmidtea mediterranea with 5 samples.

Results

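Cells from anterior-facing wounds were compared with cells from posterior-facing wounds of the planarian *Schmidtea mediterranea* at 16 h post amputation (hpa). The labels give this time as 18 hpa. Every barcode of the 3 droplet libraries with 200 to 2500 genes and at least 1000 unique molecular identifiers (UMIs, one per captured RNA molecule) was taken as a cell. This gave 15728 cells of the 23946 in the series, namely 4079 in anterior-facing replicate 1, 6935 in anterior-facing replicate 2 and 4714 in the posterior-facing library. All animals were of the strain CIW4, all tissue came from behind the pharynx, and the cells were X-insensitive cells (a gate on DNA content that leaves most dividing cells out). The labels give a gate on low propidium iodide for every library used here, whereas the study's methods name that stain for all of them except anterior-facing replicate 2. Animals of anterior-facing replicate 2 had 4 feedings of *unc-22* dsRNA, a control without a planarian target, while the other libraries had no RNAi. A library of fragments at 0 hpa with 5166 cells is given as a baseline. Each condition pooled fragments of many animals into 1 library, so that only the anterior-facing wounds were measured more than once, and wound side cannot be told apart from the library for the posterior-facing wounds.

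Planarians regenerate a head at a wound that faces forward and a tail at one that faces backward, so the same region of the body can take either course depending on which way its cut faces. Muscle cells express many of the signals that give position along the body, the wound epidermis covers the cut and signals to the tissue under it, and neoblasts are the dividing cells that make new tissue. Most contigs of the transcript assembly are named here by their number alone. A gene name is given only where the study pairs it with a contig, as its best human match. These names rest on 1 of the study's annotation tables, and another one pairs some contigs with other names.

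Library depth was close, at 37981205 and 34266407 total UMIs in the anterior-facing libraries (replicate 1 first, here and throughout) and 36663797 in the posterior-facing library. Cells had a median of 4085 and 3643 UMIs at anterior-facing wounds and 4043 at posterior-facing wounds, with mitochondrial contigs taking a median of 9.15% and 11.5%, against 9.75%. The upper limit on genes left out 1643 and 703 barcodes at anterior-facing wounds and 1519 at posterior-facing wounds. The libraries shared 4 or 5 cell barcodes per pair. Anterior-facing replicate 2 stood apart in its epidermal cells: 2369 of them fell in a cluster that held 21 cells of replicate 1 and 177 posterior-facing cells. Of 29 clusters, 22 were named from marker contigs as 1 of 7 classes and 7 were left unnamed.

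No class of cells had a share at posterior-facing wounds that lay apart from both anterior-facing libraries on the same side, by exact 95% binomial intervals that cover counting error only. For all 7 classes the posterior-facing share lay between those of the anterior-facing libraries. Epidermal-lineage-like cells made up 31.9% and 44.8% of cells at anterior-facing wounds, against 38.0% at posterior-facing wounds and 42.3% at 0 hpa. Muscle-like cells made up 12.3% and 9.03% at anterior-facing wounds, against 9.93% at posterior-facing wounds. Neuron-like cells made up 18.8% and 15.7%, against 16%, and neoblast-like cells 3.92% and 6.55%, against 6.17%. Among cells under 10% mitochondrial UMIs 3 classes lay apart from both. This limit kept 2533 of 4079 and 2037 of 6935 cells at anterior-facing wounds, and 2558 of 4714 at posterior-facing wounds. Of epidermal-lineage-like cells it kept 761 of 1303 and 528 of 3106, against 1053 of 1793. Replicate 2 thus lost far more of them, and the part of this loss in the shares was not tested. Epidermal-lineage-like cells were then 30% and 25.9% at anterior-facing wounds, against 41.2% at posterior-facing wounds, muscle-like cells 13.9% and 12.2%, against 8.44%, and neuron-like cells 22.8% and 24.4%, against 18.4%. With no upper limit on genes, neuron-like cells also lay higher at anterior-facing wounds, at 15% and 14.8%, against 12.8%.

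**Figure D1:**
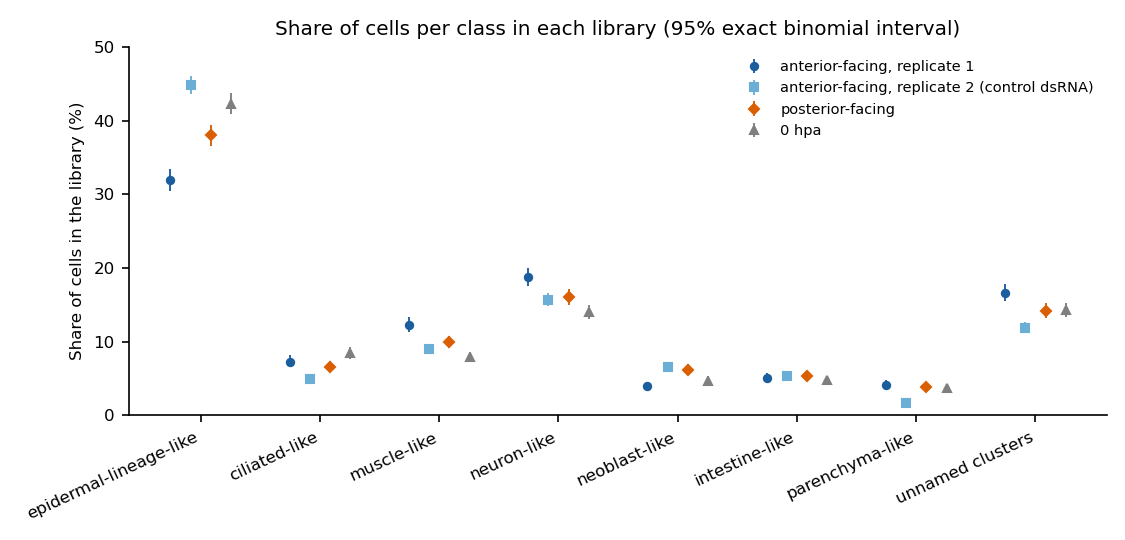
Share of cells in each class (%, y axis) for the 2 anterior-facing libraries, the posterior-facing library and the 0 hpa library, with exact 95% binomial intervals. The orange posterior-facing points lie between or beside the blue anterior-facing points in each class, as for epidermal-lineage-like cells at 31.9% and 44.8%, against 38.0%.

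Of the 29 clusters, 2 had shares apart from both anterior-facing libraries. Cluster 24, which was unnamed, lay higher at anterior-facing wounds, with 47 and 76 cells against 18, but its leading contigs themselves differed between the wounds (dd_Smed_v6_55_0 stood at 14234 and 10627 CPM in it at anterior-facing wounds, against 1768 CPM), so its size is not read as a number of cells of 1 type. Cluster 19, in turn, lay lower. It held 1.62% (interval 1.25% to 2.05%) and 1.61% (1.33% to 1.94%) of cells at anterior-facing wounds, against 2.67% (2.23% to 3.17%) at posterior-facing wounds and 1.84% at 0 hpa. It was called neoblast-like from 5 leading neoblast markers, among them the neoblast contig dd_Smed_v6_659_0, while 4 muscle markers also led in it. Within the cluster dd_Smed_v6_659_0 stood at 1810 and 1701 CPM (counts scaled to the same total per library) at anterior-facing wounds and 1814 CPM at posterior-facing wounds. The other neoblast-like cluster did not share this pattern, with 2.3% and 4.93% of cells at anterior-facing wounds, against 3.5% at posterior-facing wounds.

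UMIs were then summed per library and tested with edgeR's quasi-likelihood test, in which the spread between the 2 anterior-facing libraries stands for that of all 3. Nothing says that these libraries are more than pools prepared once each, so the p-values measure the spread between such pools, and that spread includes the control dsRNA. The test also pulls the spread of each contig towards a trend over all contigs. The weight of that trend, in degrees of freedom, was 4.14 in all cells. Within classes it was larger, for example 15.6 in muscle-like, 24.3 in intestine-like, 31.8 in ciliated-like and 264 in unnamed cells. Calls within classes thus lean more on the trend. Over all cells, 0 of 17427 contigs (0%) were called at an adjusted p of 0.05 in either direction, with 324 contigs (1.86%) at an unadjusted p under 0.05. DESeq2 called 41 higher (0.235%) and 3 lower (0.0172%) at anterior-facing wounds in the same sums. In the non-epidermal cells (muscle-, neuron-, intestine-, parenchyma- and neoblast-like, 1801 and 2660 cells at anterior-facing wounds, 1943 at posterior-facing wounds), edgeR called 0 of 14551 contigs (0%), with 233 (1.6%) at an unadjusted p under 0.05, and DESeq2 called 9 higher (0.0619%) and 2 lower (0.0137%). By a rule of size alone, 24 contigs (0.174% of the 13789 with at least 30 UMIs) were at least 2-fold higher and 15 (0.109%) at least 2-fold lower than posterior-facing in both anterior-facing libraries, after adding 5 CPM.

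The contigs that met this 2-fold rule in non-epidermal cells as well as in all cells were mostly carried by few cells. The most different was dd_Smed_v6_10_1, whose best human match is *COLEC10*, a secreted lectin. It had 786 and 1065 UMIs in non-epidermal cells at anterior-facing wounds, against 71 at posterior-facing wounds and 351 at 0 hpa. Both anterior-facing libraries were high, and the posterior-facing one was also below 0 hpa. The edgeR log2 fold change was 3.55 ± 0.27 (SE) with an adjusted p of 0.28. The size depended on how cells were taken, at 1.56 counted once per thinned cell, 2.36 in cells under 10% mitochondrial UMIs and 6.04 in cells with at least 2000 UMIs. Cells with 5 or more of its UMIs numbered 9 and 26 at anterior-facing wounds, against 1 at posterior-facing wounds, and all 36 of them lay in cluster 25, an intestine-like cluster. That cluster itself held 31 and 68 cells of the anterior-facing libraries and 46 of the posterior-facing library. Within intestine-like cells alone edgeR called dd_Smed_v6_10_1 higher (log2 fold change 3.84, adjusted p = 0.019), together with dd_Smed_v6_19_0, dd_Smed_v6_33_0, dd_Smed_v6_58_0 and dd_Smed_v6_79_0, the 5 calls of 8323 contigs (0.0601%) in that class.

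The other contigs that lay higher at anterior-facing wounds belonged to neuron-like cells. For dd_Smed_v6_3312_0 there were 1082 and 938 UMIs at anterior-facing wounds, against 224 at posterior-facing wounds and 277 at 0 hpa, in 18, 21, 8 and 14 cells with at least 5 UMIs in the same order. Its highest single cell gave 12% and 14.2% of the anterior-facing UMIs, and 37 of the 47 cells (0 hpa left out) lay in cluster 22. For dd_Smed_v6_91_0 there were 7083 and 5079 UMIs at anterior-facing wounds, against 516 at posterior-facing wounds and 313 at 0 hpa. dd_Smed_v6_2169_0 had 1487 and 3642 UMIs at anterior-facing wounds, against 275 at posterior-facing wounds, where 1 cell gave 96.7% of them, and 786 at 0 hpa. dd_Smed_v6_750_0 had 14749 and 27670 UMIs at anterior-facing wounds, against 4809 at posterior-facing wounds, of which 1 cell gave 97.9%, and 11332 at 0 hpa. Its RNA was also abundant outside cells, with 3269 CPM in the free RNA (barcodes with 10 to 99 UMIs) of anterior-facing replicate 2, against 154 CPM in that of the posterior-facing library, and replicate 1 between them. Of the 25 cells with at least 5 UMIs of dd_Smed_v6_2169_0, 24 also had dd_Smed_v6_750_0. The remaining dd_Smed_v6_829_0, dd_Smed_v6_3451_0 and dd_Smed_v6_609_0 were likewise held by 43, 14 and 27 such cells over the 3 libraries. dd_Smed_v6_829_0 had 168 and 187 CPM at anterior-facing wounds, against 54.2 CPM at posterior-facing wounds and 250 CPM at 0 hpa. dd_Smed_v6_3451_0 had 248 and 377 CPM, against 91.6 CPM and, at 0 hpa, 370 CPM. dd_Smed_v6_609_0 stood at 1400 and 1193 CPM at anterior-facing wounds, against 479 CPM at posterior-facing wounds and 524 CPM at 0 hpa. At 0 hpa dd_Smed_v6_750_0, dd_Smed_v6_829_0 and dd_Smed_v6_3451_0 were thus closer to the anterior-facing libraries, and dd_Smed_v6_3312_0, dd_Smed_v6_91_0 and dd_Smed_v6_609_0 to the posterior-facing one. In replicate 1 a single cell gave 60.5% of the UMIs of dd_Smed_v6_2169_0, 76.8% for dd_Smed_v6_829_0, 78.2% for dd_Smed_v6_3451_0 and 65.5% for dd_Smed_v6_609_0. In replicate 2 these values were 11.9%, 16.3%, 23% and 34.8%. Of the posterior-facing UMIs, 1 cell gave 98.2% for dd_Smed_v6_3451_0 and 54.4% for dd_Smed_v6_609_0. At 0 hpa 1 cell gave 94.9% for dd_Smed_v6_91_0 and 73.9% for dd_Smed_v6_609_0. Each adjusted p in non-epidermal cells was 1, and within neuron-like cells edgeR called 9 contigs higher (0.0778% of 11569) and 5 lower (0.0432%), among them dd_Smed_v6_91_0, dd_Smed_v6_2169_0 and dd_Smed_v6_3312_0.

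**Figure D2:**
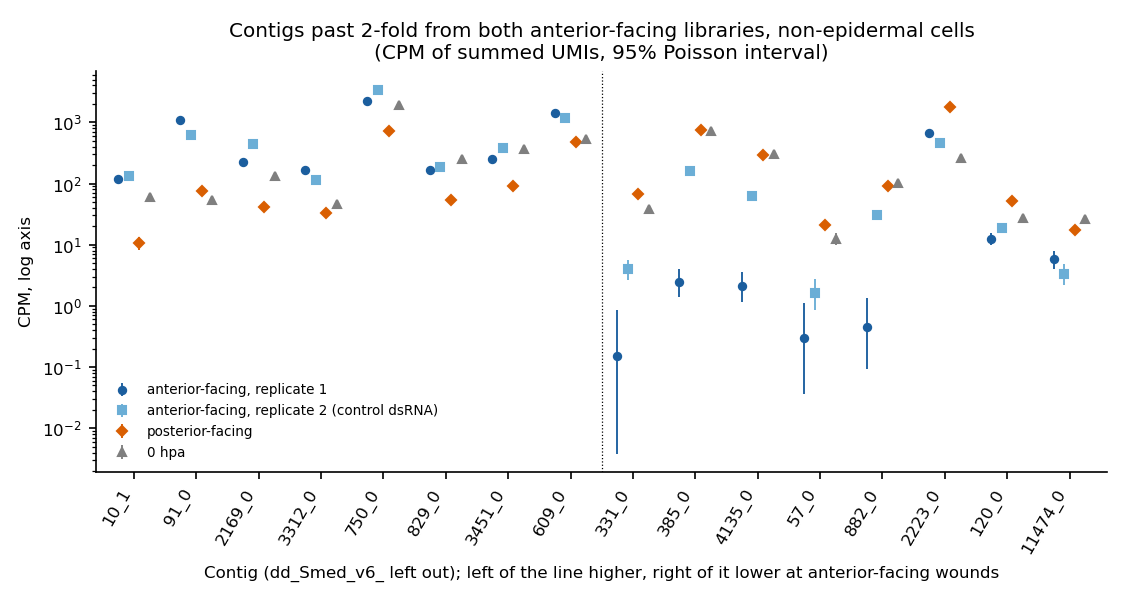
CPM in non-epidermal cells (log axis, with 95% Poisson intervals) of the 16 contigs at least 2-fold from posterior-facing in both anterior-facing libraries, in non-epidermal and in all cells. The orange posterior-facing points lie under both blue anterior-facing points for the 8 contigs left of the dotted line, such as dd_Smed_v6_10_1 (119 and 131 CPM, against 10.5 CPM), and over both for the 8 on the right.

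Of the 8 contigs that lay lower at anterior-facing wounds, 7 rested on few cells, the highest of which gave 25.3% to 64.9% of the posterior-facing UMIs. dd_Smed_v6_331_0 had 1 and 32 UMIs at anterior-facing wounds, against 450 at posterior-facing wounds and 224 at 0 hpa, and 64.9% of the 450 came from 1 of 12 cells. dd_Smed_v6_385_0, dd_Smed_v6_4135_0, dd_Smed_v6_57_0, dd_Smed_v6_882_0 and dd_Smed_v6_120_0 were largely found in the same neuron-like cells: all 8 cells with 5 or more UMIs of dd_Smed_v6_882_0 also had dd_Smed_v6_385_0, and so did all 6 cells of dd_Smed_v6_57_0 and all 4 of dd_Smed_v6_331_0. dd_Smed_v6_385_0 had 16 and 1319 UMIs at anterior-facing wounds, against 5039 at posterior-facing wounds and 4201 at 0 hpa, in 0, 3, 7 and 6 cells with at least 5 UMIs. dd_Smed_v6_2223_0 was held by other neurons, mainly of cluster 6, with 4416 and 3763 UMIs at anterior-facing wounds, against 11867 at posterior-facing wounds and 1526 at 0 hpa. dd_Smed_v6_120_0 lay lower by UMIs, with 12.3 and 18.9 CPM at anterior-facing wounds, against 51.8 CPM, but counted once per cell its fitted log2 change turned to 0.24.

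The exception was dd_Smed_v6_11474_0, a contig of low level in many cells. It had 38 and 27 UMIs in 27 and 24 non-epidermal cells at anterior-facing wounds, against 118 UMIs in 98 cells at posterior-facing wounds and 156 UMIs in 130 cells at 0 hpa. No cell held more than 6 UMIs. In muscle-like cells alone it had 4 and 0 UMIs at anterior-facing wounds, against 24 (14.7 CPM) at posterior-facing wounds and 22 (19.2 CPM) at 0 hpa. With every cell thinned to 1000 UMIs it was found in 0.666% and 0.226% of non-epidermal cells at anterior-facing wounds, against 1.96% at posterior-facing wounds and 2.77% at 0 hpa. Its level in free RNA did not move with this, at 5.1 and 7.02 CPM in anterior-facing libraries and 6.2 CPM in the posterior-facing one. The adjusted p in non-epidermal cells was 1 (log2 fold change -1.96 ± 0.49).

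Since a few cells full of one RNA weigh so much in summed counts, each contig was also described by the share of cells with at least 1 of its UMIs after thinning to 1000 UMIs per cell. This rule was chosen after the data were seen. It asks for 95% intervals at posterior-facing wounds that lie apart from both anterior-facing ones on the same side, in both of 2 draws, and it carries no p. In non-epidermal cells 21 contigs (0.197% of those in at least 30 thinned cells) met it with a higher share and 56 (0.525%) with a lower share at anterior-facing wounds. The intervals of the 2 anterior-facing libraries lay apart from each other for 1300 contigs, more than those of replicate 1 (631) or replicate 2 (946) and the posterior-facing library. At 0 hpa, the interval of 33 of the 56 lower contigs overlapped the posterior-facing one, against 89.5% of all contigs the rule could take, and 25 lay above both anterior-facing intervals, against 3.18%. The rule itself favours such positions. In free RNA, 46 of the 56 lower contigs were lower in both anterior-facing libraries, against 20% of all contigs the rule could take, and 17 of the 21 higher ones were higher in both, against 41%, and the part of free RNA in these shares was not tested.

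Several contigs lay lower at anterior-facing wounds in more than 1 kind of cell. Over the 7 classes and the unnamed cells, 12 contigs met the rule in at least 2 of these sets and 5 in at least 3, none of them with the opposite sign elsewhere. For higher shares these numbers were 8 and 1. In single sets, 0% to 0.625% of the contigs that the rule could take met it with a lower share. With a higher share 0% to 0.55% met it. Whether more contigs are common to several sets than these shares alone would give was not tested. The contig dd_Smed_v6_1040_0, which carries a domain of unknown function, was found in 4.38% and 1.92% of muscle-like cells at anterior-facing wounds, against 15% at posterior-facing wounds and 33.9% at 0 hpa. In neoblast-like cells it was found in 3.75% and 4.19%, against 12.4% and, at 0 hpa, 18.8%. In neuron-like cells the shares were 8.74% and 6.9%, against 13.5% at posterior-facing wounds and 15.8% at 0 hpa. Its shares in epidermal-lineage-like cells overlapped, at 3.22% and 1.64%, against 3.01%.

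The other contigs of this kind had their own sets of cells. dd_Smed_v6_2875_0 lay lower in muscle-like cells (12.2% and 6.55% at anterior-facing wounds, against 24.8%), in epidermal-lineage-like cells (8.6% and 5.83%, against 18.1%) and in neuron-like cells (7.3% and 7.18%, against 14.6%), but not in intestine-like cells (11.3% and 11.5%, against 10%). dd_Smed_v6_7731_0 was found in 26.9% and 27.8% of epidermal-lineage-like cells at anterior-facing wounds, against 47.8% at posterior-facing wounds and 57.7% at 0 hpa, and in 6.88% and 11.5% of neoblast-like cells, against 24.4% and, at 0 hpa, 47.1%. dd_Smed_v6_1219_1 was found in 9.76% and 7.99% of muscle-like cells at anterior-facing wounds, against 25% and, at 0 hpa, 34.4%. dd_Smed_v6_1039_0, whose best match is the small heat shock protein gene *HSPB1*, a chaperone of stressed cells, lay lower in 3 classes by smaller steps, for example in 45.5% and 38.8% of ciliated-like cells at anterior-facing wounds, against 64% at posterior-facing wounds and 66.7% at 0 hpa. Its free RNA was lower as well, at 463 and 391 CPM in anterior-facing libraries and 742 CPM in the posterior-facing one. The 1 contig that lay higher in 3 classes was dd_Smed_v6_280_0, for instance in 59.4% and 69.3% of muscle-like cells at anterior-facing wounds, against 48.7% at posterior-facing wounds and 23.6% at 0 hpa. Its free RNA was higher too, at 902 and 1440 CPM in anterior-facing libraries and 790.0 CPM in the posterior-facing one. For dd_Smed_v6_280_0 the anterior-facing wounds were thus the farther from 0 hpa in muscle-, neuron- and epidermal-lineage-like cells, and for dd_Smed_v6_1040_0 they were so in muscle-, neuron- and neoblast-like cells.

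**Figure D3:**
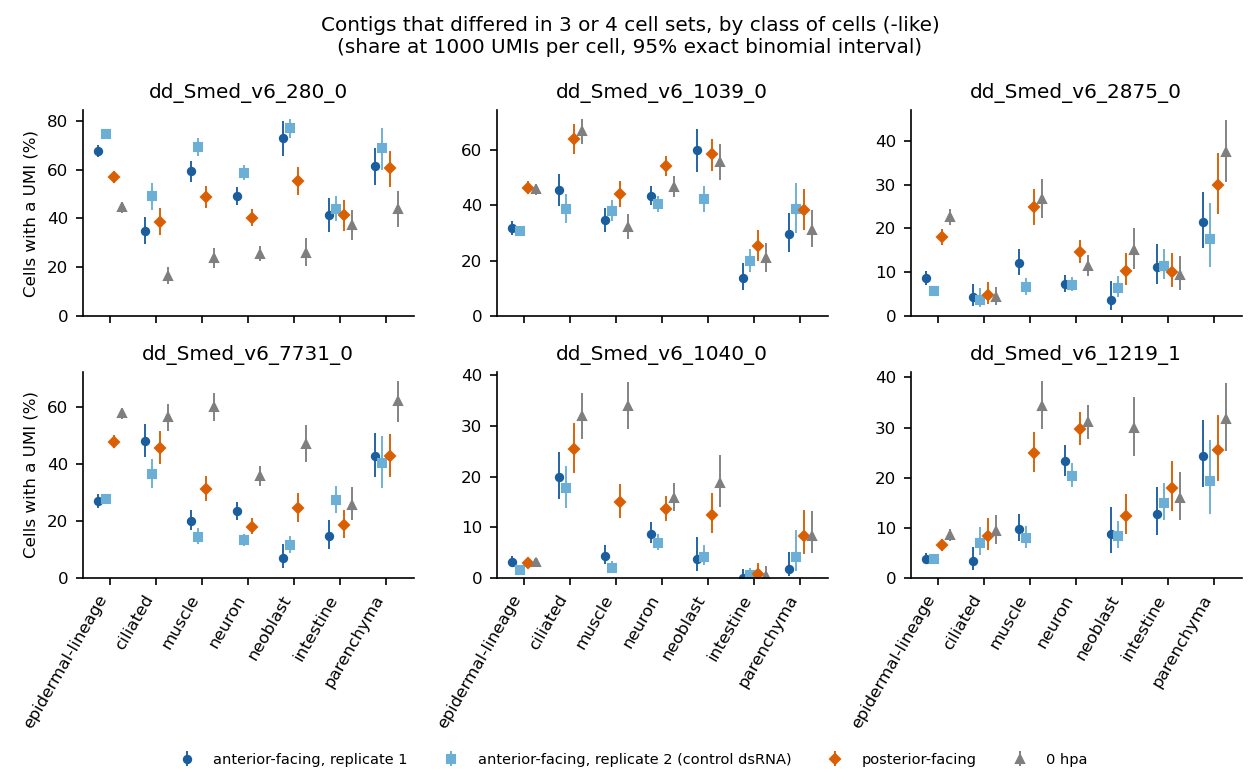
Share of cells with a UMI (%, y axis, each cell thinned to 1000 UMIs, exact 95% binomial intervals) of the 6 contigs that met the share rule in 3 or 4 sets of cells, by class (x axis). dd_Smed_v6_280_0 lies higher at anterior-facing wounds (blue) than at posterior-facing wounds (orange) and the other 5 lie lower in the classes named in the text, as for dd_Smed_v6_1040_0 in muscle-like cells (4.38% and 1.92%, against 15%).

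Muscle-like cells, the tissue that holds most positional signals, numbered 502 and 626 at anterior-facing wounds, 468 at posterior-facing wounds and 407 at 0 hpa. Within them edgeR called 6 contigs higher (0.0617% of 9726) and 16 lower (0.165%) at anterior-facing wounds, all at least 2-fold in both anterior-facing libraries. For 1 of the lower calls, dd_Smed_v6_2975_0, 1 cell held 151 of the 158 posterior-facing UMIs. By the share rule 6 contigs (0.0963% of 6228) lay higher and 16 (0.257%) lower, and 6 of the lower ones were among the edgeR calls: dd_Smed_v6_1040_0 (log2 fold change -2.18 ± 0.30, adjusted p = 0.0047), dd_Smed_v6_7824_0 (-2.04 ± 0.25, adjusted p = 0.0017), dd_Smed_v6_1219_1 (-1.76, adjusted p = 0.016), dd_Smed_v6_16227_0 (-1.81, adjusted p = 0.017), dd_Smed_v6_12768_0 (-1.63, adjusted p = 0.02) and dd_Smed_v6_2875_0 (-1.60, adjusted p = 0.035). Counted once per thinned cell, edgeR called 0 of 6784 contigs (0%), with 195 (2.87%) at an unadjusted p under 0.05, and dd_Smed_v6_1040_0 then had a log2 change of -2.29 ± 0.44 (adjusted p = 1). dd_Smed_v6_7824_0 had 30.4 and 29.1 CPM at anterior-facing wounds, against 122 CPM at posterior-facing wounds and 95.1 CPM at 0 hpa. dd_Smed_v6_16227_0, a contig found mainly in muscle-like cells, had 25.3 and 17.8 CPM at anterior-facing wounds, against 75.8 CPM and, at 0 hpa, 89.9 CPM. Its free RNA did not move with it, at 3.18 and 2.93 CPM in anterior-facing libraries, against 2.07 CPM. Free RNA of dd_Smed_v6_1040_0 was lower as well, at 49.7 and 49.2 CPM in anterior-facing libraries, against 78.6 CPM. The same held for dd_Smed_v6_7824_0 (42.7 and 36.3 CPM, against 65.5 CPM), dd_Smed_v6_1219_1 and dd_Smed_v6_2875_0.

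At 0 hpa, the interval of 12 of the 16 lower muscle contigs overlapped the posterior-facing one, against 91.6% of all contigs the rule could take in this class, and 12 lay above both anterior-facing intervals, against 3.87%. The contigs were chosen for high posterior-facing shares. In free RNA, 10 of the 16 were lower in both anterior-facing libraries, against 18% of all contigs the rule could take. Another 4 were higher in both, against 39.3%, and the part of free RNA in these shares was not tested. dd_Smed_v6_4427_0 was found in 15.9% and 5.91% of muscle-like cells at anterior-facing wounds, against 31.2% at posterior-facing wounds and 35.1% at 0 hpa, and dd_Smed_v6_4944_0 in 60.6% and 54.3%, against 79.1% and, at 0 hpa, 74.9%. dd_Smed_v6_2442_0 was found in 22.9% and 15.7%, against 40.2% and, at 0 hpa, 42.3%, and dd_Smed_v6_13065_0 in 10.4% and 5.75%, against 17.9% and, at 0 hpa, 20.6%. dd_Smed_v6_12768_0 had 6.97% and 4.47% of muscle-like cells at anterior-facing wounds, against 15.2% at posterior-facing wounds and 28.7% at 0 hpa, while its free RNA was not lower, at 19.1 and 34.5 CPM in anterior-facing libraries and 17.9 CPM in the posterior-facing one. The muscle-like class was made of clusters 10, 11 and 12 in proportions that differed between libraries, with 192 and 299 anterior-facing cells in cluster 10, against 158 posterior-facing and 72 at 0 hpa. Split by cluster, all 16 contigs had lower shares in both anterior-facing libraries in cluster 10, 15 in cluster 11 and 13 in cluster 12. None was reversed in both, and the intervals lay apart for 6, 9 and 2 of them. The contigs were chosen in these same cells, which favours the same side within each cluster. The part of the cluster mix in these shares was not tested. In cluster 11, for example, dd_Smed_v6_1040_0 was found in 2.41% and 1.98% of cells at anterior-facing wounds, against 13.4% at posterior-facing wounds and 24.1% at 0 hpa. The summed level of the 14 muscle markers in these cells was 16305 and 8594 CPM at anterior-facing wounds, against 12624 CPM at posterior-facing wounds, and that of the 8 epidermal markers was 257 and 638 CPM, against 673 CPM. Their part in the result was not tested.

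**Figure D4:**
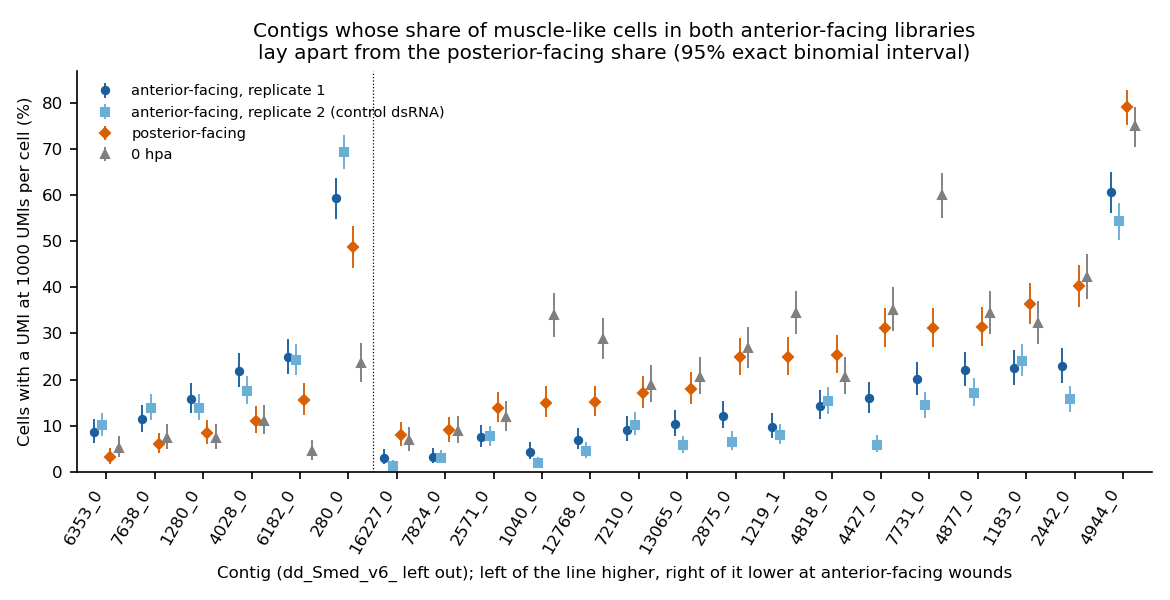
Share of muscle-like cells with a UMI (%, y axis, 1000 UMIs per cell, exact 95% binomial intervals) of the 22 contigs that met the share rule in this class. Left of the dotted line 6 contigs lie higher and right of it 16 lie lower in both anterior-facing libraries (blue) than in the posterior-facing library (orange), and the grey 0 hpa points overlap the posterior-facing interval for 12 of the 16.

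Of the 6 contigs called higher in muscle-like cells at anterior-facing wounds, 0 met the share rule. Their levels in the anterior-facing libraries ran from 13.2 CPM for dd_Smed_v6_16070_0 to 194 CPM for dd_Smed_v6_13985_0. dd_Smed_v6_25893_0 had 51 and 51 UMIs in 41 and 41 cells at anterior-facing wounds, against 5 UMIs in 5 cells at posterior-facing wounds and 1 UMI at 0 hpa (log2 fold change 3.08, adjusted p = 0.02). dd_Smed_v6_13985_0 had 194 and 116 CPM at anterior-facing wounds, against 37.3 CPM at posterior-facing wounds and 38.4 CPM at 0 hpa. The share of thinned cells with it differed less, at 6.57% and 5.59%, against 3.85%. dd_Smed_v6_17168_1 was nearly silent at 0 hpa. It had 69 and 97 UMIs in 59 and 83 muscle-like cells at anterior-facing wounds, against 20 UMIs in 15 cells at posterior-facing wounds and 0 UMIs at 0 hpa (log2 fold change 1.81, adjusted p = 0.06, not called). By share of cells, dd_Smed_v6_6182_0 lay higher at 24.9% and 24.3% of muscle-like cells at anterior-facing wounds, against 15.6% at posterior-facing wounds and 4.42% at 0 hpa, and dd_Smed_v6_6353_0 at 8.57% and 10.1%, against 3.21% and, at 0 hpa, 5.16%.

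In epidermal-lineage-like cells edgeR called 103 contigs higher (0.823% of 12515) and 42 lower (0.336%) at anterior-facing wounds. This fit gave every contig the same spread around the trend, and the anterior-facing libraries filled different clusters of the class, so the calls are given with the values of each library. Of them 17 higher and 7 lower contigs were at least 2-fold from posterior-facing in both libraries. Counted once per thinned cell, 15 were called higher (0.16% of 9393) and 9 lower (0.0958%). dd_Smed_v6_4793_0 was found in 4.07% and 5.67% of these cells at anterior-facing wounds, against 0.837% at posterior-facing wounds and 1.05% at 0 hpa (log2 fold change 1.90 ± 0.24 in UMIs, adjusted p = 1.2e-12, and 2.60 ± 0.37 in cells, adjusted p = 1.1e-08). dd_Smed_v6_3086_0 was nearly absent at 0 hpa, with 7.83% and 12.9% at anterior-facing wounds, against 3.85% at posterior-facing wounds and 0.137% at 0 hpa. dd_Smed_v6_80_0 was found in 17.6% and 17.4%, against 8.09% and, at 0 hpa, 3.52%. Some contigs were found in few cells on either side, such as dd_Smed_v6_460_0 in 1.61% and 1.19% at anterior-facing wounds, against 0.0558% at posterior-facing wounds and 0.549% at 0 hpa, and dd_Smed_v6_644_0 in 1.69% and 1.29%, against 0.167% and, at 0 hpa, 0.778%. dd_Smed_v6_1531_0 was found in 4.99% and 2.87%, against 1.17% and, at 0 hpa, 0.183%, and dd_Smed_v6_278_0 in 3.76% and 4.44%, against 1.62% and, at 0 hpa, 0.595%. For dd_Smed_v6_3086_0, dd_Smed_v6_80_0, dd_Smed_v6_1531_0 and dd_Smed_v6_278_0 the posterior-facing share thus lay between that at 0 hpa and those at anterior-facing wounds, whereas dd_Smed_v6_460_0, dd_Smed_v6_644_0 and dd_Smed_v6_4793_0 had their lowest share at posterior-facing wounds. The contig dd_Smed_v6_750_0, described above for neuron-like cells, was also called higher here, at 11.9 and 23.4 CPM at anterior-facing wounds, against 1.79 CPM at posterior-facing wounds, levels far under those in free RNA.

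Among the lower epidermal contigs were several that also met the share rule in muscle-like cells, such as dd_Smed_v6_4427_0, dd_Smed_v6_7824_0 and dd_Smed_v6_13065_0. They did not include dd_Smed_v6_11474_0, which did not meet it in muscle-like cells and was not called there (edgeR adjusted p = 0.36). dd_Smed_v6_11474_0 was found in 0.307% and 0.0644% of epidermal-lineage-like cells at anterior-facing wounds, against 1.67% at posterior-facing wounds and 1.46% at 0 hpa (log2 fold change -3.23 ± 0.35, adjusted p = 1.9e-16, and -3.48 ± 0.78 in cells, adjusted p = 0.0039). dd_Smed_v6_4427_0 was found in 1.92% and 1.19%, against 5.69% (adjusted p = 5.8e-13), dd_Smed_v6_7824_0 in 5.91% and 3.9%, against 12.1% (adjusted p = 2.5e-09), and dd_Smed_v6_13065_0 in 1.92% and 1.71%, against 5.13% (adjusted p = 1.9e-11). dd_Smed_v6_4915_0 lay lower here, at 1.07% and 0.644%, against 3.18%. dd_Smed_v6_68_0 was found in 8.06% and 6.6%, against 22% at posterior-facing wounds and 10.8% at 0 hpa, and was also lower in free RNA, at 962 and 465 CPM in anterior-facing libraries and 1302 CPM in the posterior-facing one. The epidermal marker contig dd_Smed_v6_332_0 had 4458 and 5100 CPM in these cells at anterior-facing wounds, against 7097 CPM at posterior-facing wounds and 5287 CPM at 0 hpa, and was not called (log2 fold change -0.56, adjusted p = 0.18). By the share rule 33 contigs (0.362% of 9121) lay higher and 57 (0.625%) lower. At 0 hpa, the interval of 32 of the 57 overlapped the posterior-facing one, against 93.2% of all contigs the rule could take in this class. For 42 of the 57 the 0 hpa interval lay above both anterior-facing ones, against 3.07%. The 57 were chosen for high posterior-facing shares, and the rule itself favours such positions. Cluster 3 held 261 and 551 cells of anterior-facing wounds and 310 of posterior-facing wounds. In it 24 of the 33 and 40 of the 57 kept their side in both libraries and none was reversed, with intervals apart for 1 and 5. These contigs were chosen in the whole class, of which cluster 3 is a part, so the choice favours that side.

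**Figure D5:**
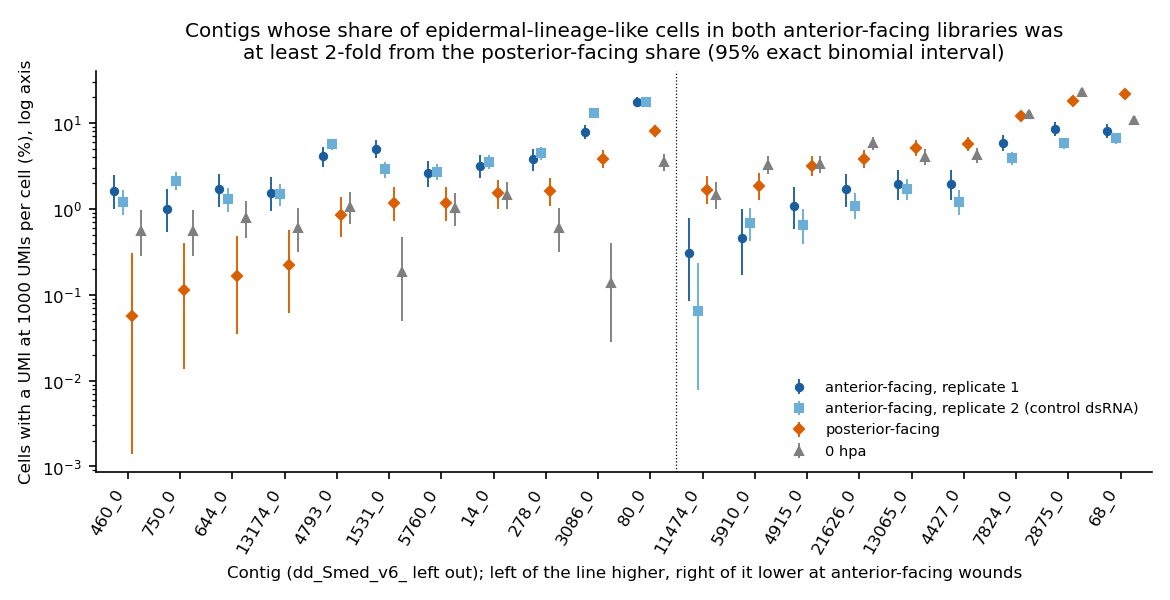
Share of epidermal-lineage-like cells with a UMI (%, log axis, 1000 UMIs per cell, exact 95% binomial intervals) of the 11 contigs at least 2-fold higher and the 9 at least 2-fold lower at anterior-facing wounds by the share rule. The orange posterior-facing points lie under both blue anterior-facing points on the left and over both on the right, as for dd_Smed_v6_11474_0 (0.307% and 0.0644%, against 1.67%).

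*equinox* (dd_Smed_v6_20318_0), the wound epidermis gene that the study describes, was found at wounds of both sides. In epidermal-lineage-like cells its level was 17.7 and 24.2 CPM at anterior-facing wounds, against 9.73 CPM and, at 0 hpa, 2.65 CPM (log2 fold change 1.13 ± 0.25, adjusted p = 0.0012). The share of these cells with a UMI after thinning overlapped, at 1.77% and 2.61%, against 1.39%, and counted this way it was not called (log2 change 0.74, adjusted p = 0.87), nor in all cells by UMIs (0.99 ± 0.47, adjusted p = 1). Its free RNA differed the same way, at 5.73 and 11.1 CPM in anterior-facing libraries, against 1.38 CPM in the posterior-facing one, and the part of free RNA in this call was not tested. By epidermal cluster, both anterior-facing libraries were above the posterior-facing one in clusters 1, 2 and 3. In cluster 3 the levels were 46.3 and 81.6 CPM at anterior-facing wounds, against 31.6 CPM at posterior-facing wounds and 8.53 CPM at 0 hpa. Clusters 1 and 2 rested on few counts of replicate 2, with 7 UMIs over its 87 cells and 1 UMI over its 5 cells. The anterior-facing libraries were not both higher in cluster 0, with 0 and 13.9 CPM, against 11.2 CPM. Nor were they in cluster 26, with 33 and 20.6 CPM, against 22.1 CPM. Replicate 1 had few cells in clusters 0 and 26. *bmp4* (dd_Smed_v6_17402_0), which encodes a secreted signal of the dorsal side made by muscle, was level in muscle-like cells, at 24.8 and 25.9 CPM at anterior-facing wounds, 26.9 CPM at posterior-facing wounds and 23.6 CPM at 0 hpa (log2 fold change -0.10 ± 0.33, adjusted p = 1).

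The remaining classes gave fewer contigs. The ciliated-like class, which is not among the non-epidermal cells, is mixed in its markers: in clusters 14 and 17, 11 and 10 of 12 ciliated markers led, and so did 13 and 12 of 18 neuron markers. In ciliated-like cells edgeR called 8 higher (0.079%) and 9 lower (0.0889%), and in 10 of the 15 that were also 2-fold from both libraries 1 cell held over 50% of the UMIs in a library where the contig was high. The one with many cells was dd_Smed_v6_9787_0, found in 2.36% and 1.74% of ciliated-like cells at anterior-facing wounds, against 8.68% at posterior-facing wounds and 8.03% at 0 hpa (log2 fold change -2.97 ± 0.41, adjusted p = 4.7e-05, and -2.10 in cells, adjusted p = 0.69). The intestine-like class is weakly marked. Its 7 markers summed to 2405 and 2231 CPM at anterior-facing wounds, against 1771 and 1641 CPM in other cells. At posterior-facing wounds they summed to 2165 CPM, against 1752 CPM in other cells. With markers leading at 3-fold it kept 31 of 204 and 68 of 374 cells at anterior-facing wounds, and 46 of 250 at posterior-facing wounds. In intestine-like cells dd_Smed_v6_6399_0 was found in 14.2% and 18.2% at anterior-facing wounds, against 4.8% at posterior-facing wounds and 2.86% at 0 hpa (log2 fold change 1.82, adjusted p = 0.34). In neuron-like cells dd_Smed_v6_13748_0 was found in 2.35% and 2.39%, against 0.531%, while 0 hpa stood at 2.08%. The contig dd_Smed_v6_10734_0, matched to *RIMS2*, which organises vesicle release at synapses, had 8.74% and 7.36% of neuron-like cells at anterior-facing wounds, against 3.85% at posterior-facing wounds and 7.07% at 0 hpa, and an adjusted p of 0.89. edgeR called 0 contigs in neoblast-like cells (0% of 8865, 213 or 2.4% at an unadjusted p under 0.05) and 0 in parenchyma-like cells (0% of 7279, 93 or 1.28% under 0.05). Counted once per thinned cell, edgeR called 0 contigs in each of these classes, with 2.97% of contigs at an unadjusted p under 0.05 in ciliated-like, 2.73% in intestine-like, 3.15% in neoblast-like, 4.74% in neuron-like and 0.463% in parenchyma-like cells. The cells of unnamed clusters are no single type. In them 234 contigs were called higher (2.13% of 10996) and 13 lower (0.118%), among them dd_Smed_v6_574_0 with 735 and 947 UMIs at anterior-facing wounds, 0 at posterior-facing wounds and 49 at 0 hpa. This set includes cluster 24, with 47 and 76 cells at anterior-facing wounds, against 18 at posterior-facing wounds, and without that cluster 27 contigs were called higher and 2 lower.

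Genes of signalling, matrix, stress, ribosome and mitochondrion were followed as lists taken from the annotated contigs. In non-epidermal cells 24 of 25 signalling contigs could be tested and none was called. As edgeR called 0 of 14551 contigs (0%) in these cells, no list could hold a call. Their log2 fold changes were above 0 for 14 and below 0 for 10, with a median of 0.15 against 0.01 over all contigs tested. The members of highest level were dd_Smed_v6_10394_0 (*SKI*, matched to a corepressor of TGF-beta signalling), with 94.8 and 75 CPM at anterior-facing wounds, against 75.4 CPM at posterior-facing wounds, and dd_Smed_v6_10380_0 (*UNC5B*, matched to a netrin receptor), with 92.1 and 70.4 CPM, against 71 CPM. Of the matrix contigs 8 of 10 were tested and none was called (median 0.13). The collagen match dd_Smed_v6_1070_0 (*COL2A1*) spanned 244 and 74.8 CPM at anterior-facing wounds, with 220.1 CPM at posterior-facing wounds between them. Of 15 contigs of stress and cell death 13 were tested and none was called (4 above 0, 9 below, median -0.10), and 1, dd_Smed_v6_1039_0, lay lower by the share rule. Both ribosomal contigs tested were below 0 (median -0.26), and dd_Smed_v6_105_0 (*RPL36*) lay lower by the share rule, at 35.1% and 34.6% of non-epidermal cells at anterior-facing wounds, against 42.6% at posterior-facing wounds and 32.5% at 0 hpa. Over all contigs that the share rule could take in these cells, 56 (0.525%) lay lower. The 8 mitochondrial contigs had a median of 0.01.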

How the data were processed

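Single-cell RNA was captured on the 10x v3 platform. The deposited matrices hold raw UMI counts per contig and barcode, made by the authors with CASAVA 1.9 and Cell Ranger. Reads were mapped to the Smes_g4 genome with a gene file that places each dd_Smed_v6 transcript at its best location and collapses those at the same place, which left 28040 contigs. The version of Cell Ranger is not given in the sources used here. The 6 hpa library, sorted by another gate, was not used. Contig lists, members and tests were chosen with earlier results of these data known.

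Cells (200 to 2500 genes, at least 1000 UMIs) of the 4 libraries were scaled to 10000 UMIs, log-transformed and clustered together on 2000 variable contigs (scanpy 1.11.5, 11 components, 20 neighbours, Leiden resolution 1). A cluster took the class with the largest share of its markers (76 in all) at least 2-fold above the median cluster, where at least 3 were so, and stayed unnamed where its top 10 contigs held more markers of other classes than of that one. Some markers were recalled and are given by contig only. Doublets were not removed: Scrublet marked 0% to 0.36% of cells in the 3 libraries, too few to have worked. Summed counts were tested with edgeR 4.0.16 (filterByExpr, TMM, quasi-likelihood, Benjamini-Hochberg over all contigs tested), with DESeq2 1.42.0 as an alternative. The tests were checked on simulated counts with known changes, for direction and median size only. These counts were drawn with the spread that edgeR had fitted. They held no single cells that carry most of a contig's UMIs, so the check does not bear on p-values of such contigs. CPM intervals are Poisson and share intervals exact binomial, both at 95% and for counting error only. For shares, each cell was thinned to 1000 UMIs. No cell was shallower. A contig needed 30 cells over the 3 libraries.

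Contigs were named if called in non-epidermal and all cells with 30 or more UMIs. As none was, contigs at least 2-fold from posterior-facing in both anterior-facing libraries and in both sets of cells were taken, up to 10 per direction, which gave 8 and 8. *equinox*, *bmp4*, marker contigs and list members were named as well. Contigs of the share rule and of single classes were chosen after their values were seen.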

Additional observations from a re-analysis of the deposited data

How the results depend on the processing

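With 1 library for posterior-facing wounds and 2 for anterior-facing ones, no p here rests on repeated posterior-facing wounds. No paired analysis was made, since the study names no pairing between anterior-facing and posterior-facing libraries. In all cells, where edgeR called 0 contigs, DESeq2 called 44, the fit with no filter on low counts 1 and that with no upper limit on genes 1. In non-epidermal cells DESeq2 called 11, no filter 107 and the sum with unnamed clusters included 2, and each other setting gave 0, as did leaving out each contig's highest cell and counting once per thinned cell (the last 3 settings, the share rule with its settings, and class shares with no upper limit on genes were chosen after seeing the data). Counted once per thinned cell, calls fell to 24 of 145 in epidermal-lineage-like cells, 34 of 247 in unnamed cells (29 with cluster 24 left out instead, also chosen after seeing the data) and 0 of 17, 22, 14 and 5 in ciliated-, muscle-, neuron- and intestine-like cells. Class shares, where 0 differed, gave 2 with each library clustered on its own (intestine-like higher and parenchyma-like lower at anterior-facing wounds). They gave 3 in cells under 10% mitochondrial UMIs, 1 with no upper limit on genes, and 3 to 4 when 1 anterior-facing library was left out. The lower clustering resolution gave 0, but it named 0 cells neoblast-like in every library. Intestine-like cells were then 0.76% and 0.966% at anterior-facing wounds, against 0.933%. Leaving out 1 anterior-facing library gave 135 to 154 contigs past 2-fold in all cells (54 with both) and 141 to 220 in non-epidermal cells (39 with both). The share rule, which needs both thinning draws, gave 220 contigs in all cells (362 and 359 in the first and the second draw alone, 822 to 1334 without 1 anterior-facing library), 77 in non-epidermal cells (146 and 147, 303 to 566), 22 in muscle-like cells (55 and 42, 58 to 176), 11 in neuron-like cells (48 and 48, 51 to 180) and 90 in epidermal-lineage-like cells (159 and 158, 150 to 605). Of 189 refitted log2 fold changes of the 16 named contigs, 162 kept their direction and side of the threshold, 26 passed the threshold (10 in DESeq2 and 16 without the filter on low counts) and 1 turned round: dd_Smed_v6_120_0, at 0.24 when counted once per thinned cell. The size of the log2 change moved by over 1.5 times in 1 to 3 settings for 14 of the 16, mostly when counted once per thinned cell or without the highest cell. The cause of these differences was not tested. Leaving out cells that Scrublet calls doublets was not run.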
